A study of Mus musculus with 43 samples.

Results

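Liver identity was taken as the set of entries whose FPKM was far higher in liver than in brain, skeletal muscle or inguinal white adipose tissue (WAT). FPKM, fragments per kilobase of transcript scaled to the mapped fragments of a library, is a level per length, and the table holds 1 value per group of mice for each of 42349 entries, an entry being a gene or several overlapping genes. A member had a mean FPKM of at least 1 over the 4 liver groups and a ratio of at least 5, where the ratio is this mean divided by the highest mean of the other 3 tissues. By this rule 1122 of 13476 entries with a mean liver FPKM of at least 1 (8.33%) were members. The distance between liver and the other tissues is therefore a description with no test, and tests are given only for differences between groups within a tissue.

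The mice were female, 15 months old, and either WT or Irs1-/- (KO, a global knockout of insulin receptor substrate 1). They were fed ad libitum (AL) or kept on 30% dietary restriction (DR) for 12 months, and a group is named by genotype and diet, as in WT AL or KO DR. The 4 combinations were each profiled by polyA RNA-seq in the 4 tissues, in 43 libraries of which 11 were liver, with 2 for WT AL and 3 for each other liver group. Irs1 was listed in liver at 4.70, 3.29, 5.95 and 4.75 FPKM in WT AL and WT DR and then in KO AL and KO DR, so it was not lower under the KO labels. Every genotype direction below is that of the groups as labelled KO AL and KO DR. The files hold no counts and no single libraries, so the depth is unknown, replicates cannot be compared, and each error is the 95% interval that the authors' software gave to the group value. The test between groups was a two-sided Wald test on the log2 ratio, with SEs from these intervals and Benjamini-Hochberg adjustment over all entries at an FDR of 10%, and a gene that passed it is said to be called.

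The liver is built mostly of hepatocytes, which make the carriers, clotting factors and complement of plasma, assemble lipoproteins, turn ammonia into urea, make bile acids, and oxidise and conjugate drugs and hormones. A network of transcription factors, among them HNF4A, FOXA and C/EBP proteins, binds close to the start sites of many hepatocyte genes. Kupffer cells (resident macrophages), sinusoidal endothelium, stellate cells and bile duct cells make up the rest of the tissue. In bulk tissue, fewer cells of a type and less RNA per cell cannot be told apart.

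The sequences before the start sites of 5 cytochrome P450 members are shown because each holds the letters of a liver factor motif while their levels ran in different directions over the liver groups. They are the 150 bases before the RefSeq start site in GRCm38.p6, 5′ to 3′ on the strand of the gene, which is the minus strand for all 5. Capitals mark CAAAGTCCA, a core of the HNF4 site, and TATAAA, the TATA box, each searched on both strands. Cyp8b1 is the sterol 12-alpha-hydroxylase of bile acid synthesis (chr9:121916306-121916455), Cyp3a11 a drug-induced oxidase (chr5:145879855-145880004), and Cyp3a41a (chr5:145720137-145720286) and Cyp3a16 (chr5:145469724-145469873) are its paralogues. Cyp2c40 oxidises arachidonic acid (chr19:39812815-39812964).
Cyp8b1: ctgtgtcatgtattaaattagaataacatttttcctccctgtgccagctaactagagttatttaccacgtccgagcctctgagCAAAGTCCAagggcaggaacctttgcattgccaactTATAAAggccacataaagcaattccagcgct
Cyp3a11: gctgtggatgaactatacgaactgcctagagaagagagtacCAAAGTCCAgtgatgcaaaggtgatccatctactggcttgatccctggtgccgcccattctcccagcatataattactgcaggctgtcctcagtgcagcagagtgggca
Cyp3a41a: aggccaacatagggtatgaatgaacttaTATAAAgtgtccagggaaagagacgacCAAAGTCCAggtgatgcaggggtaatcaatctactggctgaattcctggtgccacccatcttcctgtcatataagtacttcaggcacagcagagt
Cyp3a16: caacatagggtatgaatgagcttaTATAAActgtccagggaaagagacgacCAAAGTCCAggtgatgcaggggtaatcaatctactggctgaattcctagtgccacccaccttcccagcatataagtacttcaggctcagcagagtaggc
Cyp2c40: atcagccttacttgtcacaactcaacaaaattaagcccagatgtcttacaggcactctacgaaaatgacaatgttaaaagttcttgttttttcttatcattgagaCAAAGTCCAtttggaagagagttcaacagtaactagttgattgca

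The HNF4 letters began 67 bases before the start of Cyp8b1, 109 before Cyp3a11, 95 before Cyp3a41a, 99 before Cyp3a16 and 45 before Cyp2c40. A TATA box began 31 bases before the start of Cyp8b1, and Cyp3a41a and Cyp3a16 held these letters farther away, at 122 and 126 bases. In liver Cyp3a11 was lowest in WT AL, while Cyp3a41a and Cyp3a16 were lower in both DR groups, and Cyp2c40 was at 155, 303, 276 and 312 FPKM in WT AL and WT DR and then in KO AL and KO DR. RefSeq promoters of 300 bases (250 before to 50 after the start) were found for 574 of the 787 protein-coding members, 714 promoters in all. The HNF4 core stood in 21 of them (2.94%), against 35 of 9163 promoters (0.382%) of protein-coding entries in liver that were not members and 156 of all 32851 promoters (0.475%). The FOXA core TGTTTAC was in 5.88%, 2.44% and 3.65% of these, and the TATA box in 17.6%, 6.57% and 13.6%. The C/EBP palindrome TTGCGCAA was in 0 member promoters and 0.183% of all, which says only that these letters are not in these windows. Of 21 HNF4 matches in member promoters, 12 (57.1%) began within 100 bases before the start, against 58 of 156 (37.2%) in all promoters. A match is a run of letters and not a bound site, and the Cyp2c and Cyp3a genes among the matches are close paralogues and not independent observations.

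By gene class, 787 members were protein-coding, 154 were small RNAs, 80 pseudogenes and 81 other non-coding genes, and 20 were not matched to the annotation. The protein-coding members were 7.54% of the 10440 protein-coding entries in liver. Their median ratio was 38.4 and their median liver level 85.4 FPKM. The ratio was at least 10 for 583 of them, at least 100 for 288 and at least 200 for 89. The next highest tissue was WAT for 446, skeletal muscle for 232 and brain for 109. The limit cuts a continuous scale: Slc7a2 and Cyp2e1 lay just inside with ratios of 5.01, and Gata4 (4.99), Galk1 (4.98) and the joined entry of Ccnf and Mir5134 (4.97) lay just outside.

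**Figure D1:**
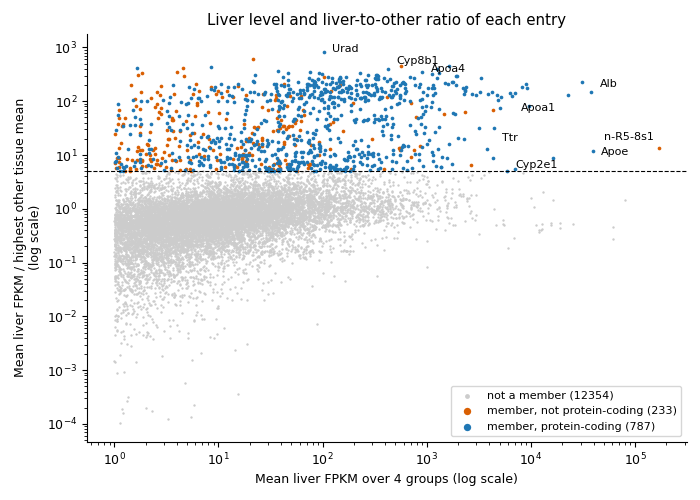
Each point is an entry with a mean liver FPKM of at least 1 and a ratio above 0, with the mean liver FPKM on the x axis and the ratio to the highest other tissue mean on the y axis, both on log scales. Members lie above the line at a ratio of 5, and the 102 members listed at 0 in all 12 other groups have no ratio and are not drawn.

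The protein-coding members took 43.1% of all protein-coding FPKM in the liver of WT AL, 45.1% in WT DR, 46.2% in KO AL and 45.7% in KO DR. In brain they took 1.18% to 1.53%, in skeletal muscle 0.360% to 1.17% and in WAT 2.09% to 3.63%. For 781 of the 787 (99.2%) the lowest liver group lay above the highest of the 12 other groups, against 15.7% of all entries with a mean liver FPKM of at least 1, a contrast that the rule itself used. Taken within each of the 4 groups, the 5-fold ratio was reached in every group by 645 of them (82.0%).

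Alb (chr5:90460897-90476602, GRCm38, GENCODE M21) was listed in liver at 17208 FPKM in WT AL, 56555 in WT DR, 34112 in KO AL and 44350.4 in KO DR. Apoa1, the main protein of high-density lipoprotein (chr9:46228580-46230466), was at 10017, 21380.1, 29888 and 30513, and Ttr, the thyroid hormone and retinol carrier transthyretin, at 2058, 5363, 4386 and 5822 in the same order. All 3 liver markers were lowest in WT AL, and none of their differences passed the test; for Alb, WT DR against WT AL gave log2 1.72, SE 1.61. The intervals of abundant transcripts were wide: the lower bound for Alb was 0 in all 4 liver groups, and it was 0 for 12 to 21 of the 74 protein-coding members with a mean liver FPKM of at least 1000. Ttr was at 48.5 to 289 FPKM in brain, where the choroid plexus makes it, so its ratio was 31.8, against 148 for Alb and 133 for Apoa1.

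**Figure D2:**
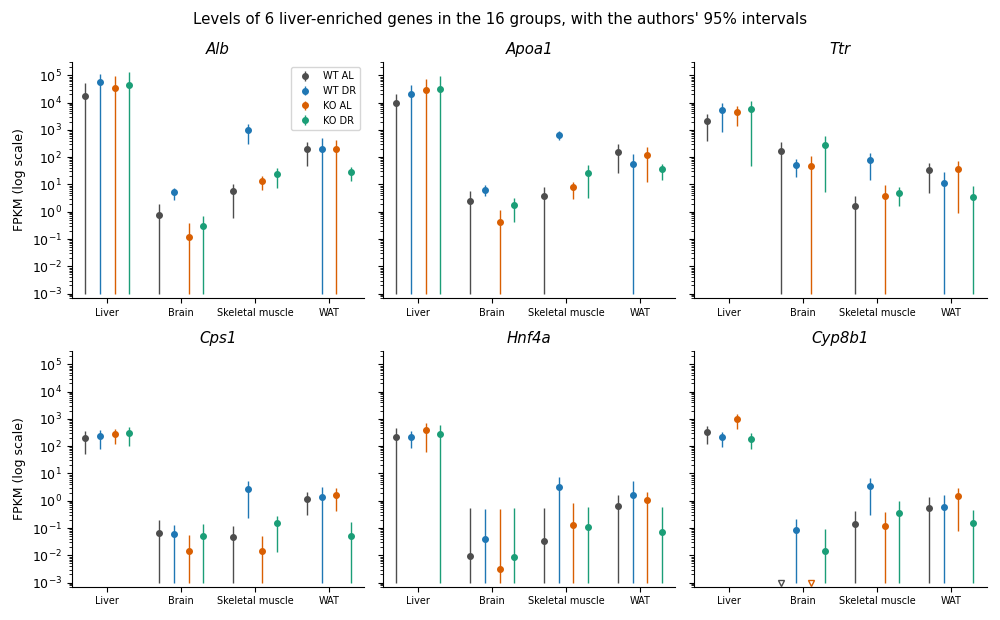
FPKM on a log scale of Alb, Apoa1, Ttr, Cps1, Hnf4a and Cyp8b1 in the 16 groups, with bars for the authors' 95% intervals, which reach the axis floor where the lower bound is 0, and open triangles for values listed at 0. The 4 liver groups stand above the 12 others, and in skeletal muscle WT DR stands above the other 3 groups for Alb, at 987 FPKM.

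Among members with a mean liver FPKM of at least 10, Urad, an enzyme of urate breakdown, had the highest ratio (812). It was at 96.6 FPKM in WT AL, 41.7 in WT DR, 166 in KO AL and 106 in KO DR, and was listed at 0 in all 4 brain groups. The non-coding Gm16573 (599), Gm5096 (459.5) and the pseudogene Bhmt-ps1 (449.8) followed. Most of the other 11 of the leading 15 were enzymes: Cyp8b1 (406), Cyp4a10 (405), Ugt2b35 (363), Cyp3a44 (357), Cyp4a32 (339), Ugt2b38 (334), Cyp2d26 (329), Cyp2a22 (320.4) and Bhmt (320.0). The remaining pair, Apoa4 (346) and Lect2 (334), are secreted. Several of these, and the Mup genes, have near-identical copies that can share reads, so the split of FPKM between copies is uncertain.

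By level, 9 of the 10 most abundant members were plasma proteins. They were Apoe (mean liver FPKM 39111), Alb (38056), Apoa2 (30634), Apoa1 (22949.7), the joined entry Gm20425,Srprb,Trf that holds transferrin (16403), Apoc1 (9666), Apoc3 (9152), the antithrombin gene Serpinc1 (8931) and the fetuin gene Ahsg (8229). The first was n-R5-8s1, a ribosomal RNA gene, at 303919 FPKM in WT AL, 12826 in WT DR, 175439 in KO AL and 190676 in KO DR, a gene class treated at the end.

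Most clotting, carrier and complement genes were members. Of 25 coagulation and fibrinolysis entries 23 were members, with a median ratio of 143, and their median highest-to-lowest fold over the 4 liver groups was 1.76. Fga was at 2893 FPKM in WT AL, 3236 in WT DR, 4220.0 in KO AL and 2694 in KO DR, F2 (prothrombin) at 795, 1327, 1475 and 1230.1, and F9, the factor lacking in haemophilia B, at 55.9, 88.3, 83.0 and 72.0 in the same order. No coagulation member passed any of the 4 liver comparisons. These called only 0.0748% to 0.391% of all protein-coding entries tested, so the lack of calls does not set the list apart. Of 24 plasma carrier entries 20 were members, and of 21 complement entries 17. C8a and C8b, chains of the membrane attack complex, were lowest in WT AL: C8a was at 16.7, 66.7, 44.6 and 54.4 and C8b at 12.5, 77.2, 57.8 and 57.9.

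Of 23 acute phase and protease inhibitor entries 16 were members, with a median fold of 2.26 over the liver groups. Hamp, the iron hormone hepcidin, was at 3556 FPKM in WT AL, 11090.4 in WT DR, 3658 in KO AL and 2204 in KO DR, and its paralogue Hamp2 at 239, 671, 385 and 181, both highest in WT DR. The antitrypsin genes Serpina1a to Serpina1e were lowest in WT AL and highest in WT DR, from 2799 to 6300.4 FPKM for Serpina1a. Saa3, Lcn2 and Orm1, acute phase genes that other tissues make too, had ratios of 0.973, 2.40 and 3.20 and were not members.

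Lipoprotein genes gave 18 member entries of 22. Apoa4, an apolipoprotein of triglyceride-rich particles, was at 1701 FPKM in WT AL, 322 in WT DR, 957 in KO AL and 649 in KO DR. WT AL was highest and WT DR lowest, but the difference did not pass the test (log2 -2.40, SE 0.95). Apob, the structural protein of very-low-density lipoprotein, kept to 876 to 1370.5 FPKM.

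Nitrogen handling combined high ratios with a spread over the liver groups near that of other genes. Of 10 urea cycle and ammonia entries 8 were members, with a median level of 226 FPKM. Their median fold was 1.60, against 1.64 over all protein-coding entries and 1.75 over those at 100 FPKM or more. Cps1, the entry enzyme of the cycle, was at 205 FPKM in WT AL, 243 in WT DR, 281 in KO AL and 296 in KO DR with a ratio of 246, and Otc, the next enzyme, at 85.1, 139.8, 128 and 143 with a ratio of 227. Ass1 was at 332, 902, 724 and 798, lowest in WT AL. Glul (glutamine synthetase), at 490.3 to 1072 FPKM in liver, had a ratio of 0.578 and was not a member. Of 32 entries of amino acid and one-carbon breakdown 25 were members with a median fold of 1.57. Their folds ran from 1.15 for Kmo, of tryptophan breakdown, to 2.90 for Gnmt, a glycine methyltransferase, which was at 1799, 4143, 5222 and 4259, lowest in WT AL.

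Glucose production and bile acid synthesis were liver-enriched at some steps only. Of 14 glucose entries 9 were members. G6pc, which frees glucose from its phosphate, was at 199.5 FPKM in WT AL, 108 in WT DR, 191 in KO AL and 92.5 in KO DR. It was lower in both DR groups, but KO DR against KO AL did not pass the test (log2 -1.04, SE 0.50). Pck1, which also serves glycerol synthesis in fat, had a ratio of 1.85 and was not a member. Of 19 bile acid entries 15 were members. Cyp7a1, the rate-limiting enzyme of the pathway, was at 27.0, 47.7, 21.7 and 51.1 FPKM in WT AL and WT DR and then in KO AL and KO DR, and Slc10a1, the bile acid importer, at 455, 514, 594 and 768. Of 22 ketone body and fatty acid oxidation entries 13 were members, while Hadha (1.29) and Acadl (0.811) of mitochondrial oxidation were not.

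Drug and hormone metabolism was the largest functional list. Of 46 cytochrome P450 entries 41 were members, with a median ratio of 168 and a median level of 233 FPKM. Their median fold over the liver groups was 2.18, against 1.64 over all protein-coding entries and 1.75 over those at 100 FPKM or more. Cyp2e1, an oxidiser of ethanol, was at 3436 to 7621 FPKM, but its WAT mean of 1166 put it at the edge of the set. Cyp3a11, a drug-induced oxidase, was at 155 FPKM in WT AL, 947 in WT DR, 501 in KO AL and 827 in KO DR. WT AL was lowest, though WT DR against WT AL did not pass the test (log2 2.61, SE 0.85). The female-predominant Cyp3a41a ran the other way, at 505, 185, 535 and 148, lower in both DR groups. Of 31 conjugation entries 20 were members and of 25 flavin monooxygenase, carboxylesterase and alcohol oxidation entries 17. In the latter, the carboxylesterase gene Ces2e was at 55.6, 62.3, 64.6 and 63.1, the smallest fold among its members (1.16).

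All 21 major urinary protein (Mup) entries, which encode pheromone carriers, were members, with a median ratio of 46.5. Mup1 was at 384 FPKM in WT AL, 187 in WT DR, 373 in KO AL and 144 in KO DR, Mup7 at 408, 246, 445 and 162 and Mup17 at 368, 115, 255 and 86.3 in the same order. Both DR groups lay below both AL groups for 15 of the 21 (71.4%), an order found for 22.7% of the 10440 protein-coding entries. The copies share sequence, so these 15 are not independent observations. Mup20 (13.9, 30.5, 19.8 and 19.0) and Mup21 (33.1, 101, 56.1 and 40.0) were highest in WT DR. The median log2 difference of the list was -0.77 for WT DR against WT AL and -1.35 for KO DR against KO AL, against 0.03 and -0.03 over all entries tested, and 1 entry, Mup17, passed a test.

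Transcription factors of hepatocytes were members at modest levels: 15 of 25, with a median liver FPKM of 38.4 and a median fold of 1.61. Hnf4a was at 211 FPKM in WT AL, 215 in WT DR, 386 in KO AL and 282 in KO DR with a ratio of 308, and Nr1i3, a receptor for drugs, at 263, 249, 278 and 308 with 197. Foxa2, a pioneer factor, was at 53.1, 29.2, 41.5 and 29.9, lower in both DR groups. This order was found for 7 of the 15 (46.7%), against 22.7% of the 10440 protein-coding entries, and it carries no error. Cebpa, at 191 to 326 FPKM in liver, is shared with fat and had a ratio of 0.975. None of the 15 passed a liver comparison, where 0.0748% to 0.391% of all protein-coding entries did, so this does not set them apart.

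Few markers of the other liver cells were members: 3 of 10 for Kupffer cells, 3 of 11 for sinusoidal endothelium, 3 of 9 for stellate cells and 1 of 7 for bile duct. Cd5l, a secreted macrophage protein, was at 93.6 FPKM in WT AL, 45.9 in WT DR, 92.9 in KO AL and 49.4 in KO DR, and Clec4f, a Kupffer cell lectin, at 45.0, 31.2, 42.4 and 35.2, both lower in the DR groups. Clec4g of sinusoidal endothelium was at 31.4, 34.3, 38.2 and 51.9. Summed over the 10 Kupffer markers, liver held 193, 123, 195 and 128 FPKM in the 4 groups. No muscle, adipocyte, brain, red blood cell or antibody marker was a member, and of 11 exocrine pancreas entries 1 was, the joined entry of the protease genes Cela2a and Ctrc, at 0, 0.613, 1.83 and 3.18 FPKM. Summed red blood cell markers stood at 2681, 3469, 13569.9 and 12047 FPKM, muscle markers at 2.49, 12.2, 93.4 and 31.8 and exocrine pancreas markers at 5.11, 11.7, 13.5 and 13.5. These sums, and that of brain markers (4.59, 5.15, 6.77 and 8.72), were lowest in WT AL. Adipocyte markers (2235, 1284, 3036 and 1925) and B cell and antibody markers (334, 156, 186 and 213) were instead lowest in WT DR. The part of all these markers in the differences between liver groups was not tested.

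At 100 FPKM and above, the spread of the members over the 4 liver groups was close to that of all protein-coding entries, and over all levels it was somewhat wider. The median highest-to-lowest fold was 1.76 for protein-coding members (quartiles 1.45 and 2.27) and 1.64 for all protein-coding entries, and 63.3% and 72.5% stayed under 2-fold. With a mean liver FPKM of at least 100 the medians were 1.76 and 1.75, and at 1000 or more both were 1.95. WT AL was the lowest of the 4 groups for 353 members (44.9%), against 34.1% of entries. In the most abundant members, those at 1000 or more, 71 of 74 were higher in KO AL than in WT AL, with a median log2 difference of 0.73, and so were 117 of all 122 entries at that level (0.67). Members are not replicates, and these are differences between group values on a relative scale.

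**Figure D3:**
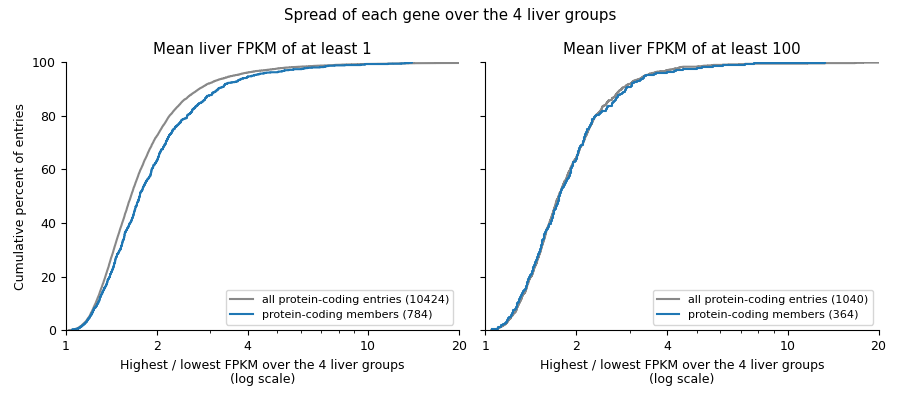
Cumulative percent of protein-coding members and of all protein-coding entries by the highest-to-lowest fold over the 4 liver groups, on a log scale, in 1 panel per minimum of the mean liver FPKM. At a minimum of 1 the members lie to the right of the entries, with medians of 1.76 and 1.64, and at 100 the medians are 1.76 and 1.75.

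In order, both DR groups lay above both AL groups for 214 of the 787 protein-coding members (27.2%), against 18.3% of protein-coding entries, and below them for 143 (18.2%), against 22.7%. Both KO groups lay above both WT groups for 236 (30.0%), against 24.3%, and below for 42 (5.34%), against 11.1%. The order of 4 group values carries no error and is a description. Of 7 pericentral members, which mark hepatocytes around the central vein, 6 had both KO groups above both WT groups, among them Cyp2e1 at 3436, 5716, 6617 and 7621 FPKM in WT AL and WT DR and then in KO AL and KO DR. The exception was Cyp1a2, an oxidase of caffeine, at 178, 320.1, 304 and 308, where WT DR was highest. Of 11 members of the periportal list 3 (27.3%) had both KO groups above both WT groups. Of 12 members of the growth axis list, which shares Lect2 with the pericentral list, 7 had this order, such as Igfbp2 at 462, 1133, 1258 and 1319.

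Few members passed the test between liver groups. KO AL against WT AL called 8 of 979 members (5 higher, 3 lower), against 0.316% of all entries tested. WT DR against WT AL called 10 of 981 (1 higher, 9 lower; background 0.236%), KO DR against WT DR 9 of 995 (7 higher, 2 lower; 0.288%) and KO DR against KO AL 22 of 1011 (10 higher, 12 lower; 0.611%). Centred on the median of all entries, KO DR against WT DR called 5 higher and 3 lower. Of the protein-coding members 3 of 777, 1 of 780, 1 of 780 and 9 of 783 were called in these comparisons, in the same order. The shares of all protein-coding entries tested were 0.102%, 0.0748%, 0.104% and 0.391%. In at least 1 comparison 13 of the 787 protein-coding members were called. The matching share of all protein-coding entries is not given here, so this count does not compare members with other entries. The 3-degree test of equal levels over the 4 liver groups called 30 of 975 members, against 1.1% of entries. Among protein-coding members it called 19 of 783, against 0.817% of protein-coding entries. The median SE of a protein-coding member was 0.55 to 0.68 on the log2 scale, and 44 to 141 members per comparison differed by 2-fold or more without being called, so differences of that size were mostly not detectable. Had the intervals been read as spread between libraries, with the SD divided by the root of their number, the counts of members called would have been 43, 89, 56 and 123. The share of all entries called at that setting is not given here, so these counts do not compare members with other entries.

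Igfbp1, a hepatic binding protein that insulin is known to repress, was at 34.9 FPKM (95% interval 15.0 to 54.8) in WT AL, 82.5 FPKM (95% interval 34.9 to 130.1) in WT DR, 270.1 FPKM (95% interval 173 to 368) in KO AL and 46.5 FPKM (95% interval 24.7 to 68.2) in KO DR. The group labelled KO AL stood above the other 3 and its interval overlapped none of theirs. It was higher in KO AL than in WT AL (log2 2.95, SE 0.49) and lower in KO DR than in KO AL (log2 -2.54, SE 0.43).

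Cyp8b1 was at 329 FPKM (95% interval 122 to 537) in WT AL, 216 FPKM (95% interval 89.7 to 341) in WT DR, 960.0 FPKM (95% interval 432 to 1488) in KO AL and 184 FPKM (95% interval 75.7 to 292) in KO DR, and fell in KO DR against KO AL (log2 -2.38, SE 0.58). Fgf21, a fasting hormone of liver, was at 32.8, 34.9, 96.1 and 18.5 FPKM in WT AL and WT DR and then in KO AL and KO DR and also fell in KO DR against KO AL (log2 -2.37, SE 0.52). Both were highest in the group labelled KO AL. The Cyp3a genes Cyp3a44 (91.9, 34.8, 150.1 and 23.0; log2 -2.70, SE 0.57) and Cyp3a16 (76.0, 27.9, 65.5 and 17.3; log2 -1.92, SE 0.49) fell as well, as did Mup17 (log2 -1.57, SE 0.45).

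In the other direction, Upp2, a uridine phosphorylase, was at 38.0 FPKM in WT AL, 155 in WT DR, 28.6 in KO AL and 198 in KO DR, and rose in KO DR against KO AL (log2 2.79, SE 0.58). The low-level cadherin gene Dsg1c was at 0.838, 2.91, 0.659 and 4.16 and rose in the same comparison (log2 2.66, SE 0.70). For these genes both DR groups lay above both AL groups, and WT DR against WT AL did not pass the test for Upp2 (log2 2.03, SE 0.86). Whether the DR difference itself differed between genotypes was tested for each entry, as given among the additional observations.

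Sult2a7, a sulfotransferase with close paralogues, was at 53.3 FPKM in WT AL, 25.1 in WT DR, 3.81 in KO AL and 6.61 in KO DR, and was lower in KO AL than in WT AL (log2 -3.81, SE 0.69). C8b rose in WT DR against WT AL (log2 2.63, SE 0.66). A1bg, a plasma glycoprotein known as female-biased in mouse liver, was at 1607 FPKM (95% interval 76.3 to 3137) in WT AL, 900.4 FPKM (95% interval 278 to 1522) in WT DR, 407 FPKM (95% interval 144 to 670.1) in KO AL and 121 FPKM (95% interval 45.6 to 196) in KO DR, and was lower in KO DR than in WT DR (log2 -2.90, SE 0.67).

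Serpina6 (corticosteroid-binding globulin), Cyp17a1 (a steroid hydroxylase) and Osgin1 passed the test over all 4 groups and none of the 4 liver comparisons. Serpina6 was at 222, 626, 149 and 438 FPKM in WT AL and WT DR and then in KO AL and KO DR, with both DR groups above both AL groups. Cyp17a1 was at 172, 31.9, 181 and 69.3, with both DR groups below. Osgin1, an oxidative stress gene, was at 176, 148, 54.3 and 88.5, with both KO groups below both WT groups.

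**Figure D4:**
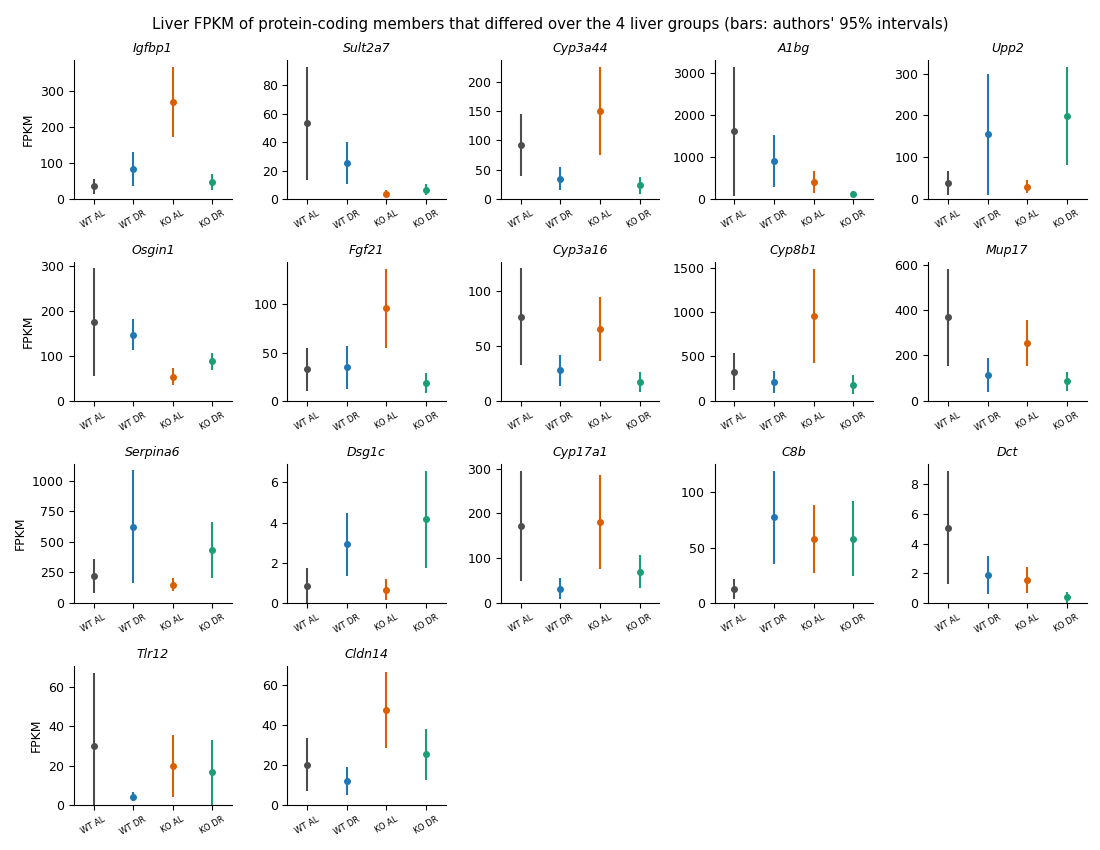
Liver FPKM on linear axes from 0 in the 4 groups for 17 of the 19 protein-coding members called by the test over all 4 groups, with bars for the authors' 95% intervals. Igfbp1 is highest in KO AL, at 270.1 FPKM, and Upp2 is highest in the DR groups, at 155 and 198 FPKM.

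Outside liver, the members were seen at low levels that differed between groups. Over the 364 protein-coding members with a mean liver FPKM of at least 100, the skeletal muscle of WT DR held a median of 2.24% of the liver level of the same group, against 0.111% in WT AL, 0.121% in KO AL and 0.154% in KO DR. Alb in muscle was at 5.52, 987, 13.6 and 23.3 FPKM and Apoa1 at 3.66, 653, 7.75 and 27.3. In that group 354 of the 364 reached 1 FPKM, and Spearman's rho across genes between muscle and liver was 0.787, against 0.378 to 0.452 in the other muscle groups; genes are not independent replicates. The medians were 1.39%, 0.586%, 1.12% and 0.392% in WAT and 0.0441% to 0.0850% in brain.

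In skeletal muscle, WT DR against WT AL called 71 of 509 members, all higher, against 1.4% of all entries in either direction and 0.795% higher. KO DR against WT DR called 117 of 554, 114 lower and 3 higher, against 2.23% and, for lower, 1.35%. Both comparisons use the WT DR muscle group. An entry was tested only if at least 1 of its 2 values reached 1 FPKM. Of the 364 abundant members 354 did so in WT DR muscle, against 146 in WT AL and 186 in KO DR. Many of them were thus tested only through WT DR, which bears on the direction of the calls, and the counts are a description. With no filter on low FPKM, 66 members were called in the first comparison, all higher, and 103 in the second, 102 of them lower. Plg (plasminogen) was at 0.0349, 31.2, 0.512 and 0.543 FPKM in muscle, and rose in WT DR against WT AL (log2 9.80, SE 2.06), and Mbl2, a collectin, at 0.190, 17.2, 0.289 and 0.103, was lower in KO DR than in WT DR (log2 -7.38, SE 1.67). Plg and Mbl2 reached 1 FPKM in no muscle group but WT DR, and the lower bound of the value compared with it was 0. They were thus tested only through WT DR, and their log2 values are a description. Which of the 3 libraries of WT DR muscle carried these values cannot be seen, and their source was not tested. Without this group in the muscle mean, 1128 entries were members, and muscle was the next highest tissue for 19 in place of 130 of the 364.

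**Figure D5:**
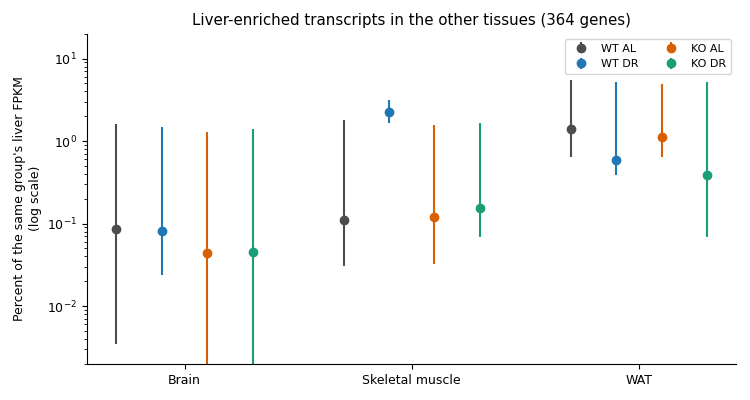
Level of the 364 abundant protein-coding members in brain, skeletal muscle and WAT as a percent of their liver level in the same group, on a log scale, with points for medians and bars for quartiles, drawn to the axis floor where the quartile is lower. The median in WT DR skeletal muscle is 2.24%, against 0.111% to 0.154% in the other 3 muscle groups.

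The short RNAs among the members differed in kind. Of 154 small RNA members, 143 were shorter than 200 bases, 130 were listed at 0 in at least 1 liver group and 70 were above 0 in exactly 1. Of 43 genes of 5S ribosomal RNA, 42 were highest in KO AL, with medians of 0, 3.99, 130.0 and 5.69 FPKM in WT AL and WT DR and then in KO AL and KO DR. All 43 were above 0 in KO AL, against 8 in WT AL, 22 in WT DR and 22 in KO DR. The liver mean that made them members thus rested largely on KO AL, so their order over the groups is not a separate result. Dividing by a short length makes FPKM large for few reads, and most such RNAs carry no polyA tail, so they are described here mainly by counts. The 10 members with the largest fold over the liver groups at a mean of at least 10 FPKM were all small RNAs, led by Gm25360 (199-fold, 115, 0.579, 62.1 and 66.9 FPKM). Of the 35 members called in at least 1 liver comparison, 13 were protein-coding.

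Members lay close together on the chromosomes. Of the 787 protein-coding members 343 (43.6%) had another member within 100 kb, against 1623 of 9653 (16.8%) protein-coding non-members with a member that near. Runs of at least 5 members numbered 14 and held 82. The longest was the serine protease inhibitor run from Serpina10 to Serpina12 on chr12:103614786-104044443 with 9 members, followed by the Sult2a sulfotransferases on chr7:13623967-14254870 with 8. Levels within a run varied: the highest mean was 1185 times the lowest among the Serpina run and 2.63 times among the 5 members Mup9, Mup1, Mup10, Mup11 and Mup12.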

How the data were processed

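RNA-seq libraries of liver, brain, skeletal muscle and WAT from 4 groups of female mice, 43 in all, were grouped by genotype and diet as labelled. The authors trimmed Ion Proton reads (cutadapt 1.5), used the GRCm38 build and deposited FPKM values from Cuffdiff 2.2.1, which pooled the 2 or 3 libraries of a group into 1 FPKM with a 95% interval and scaled libraries to each other by geometric normalization. The table used here holds no fold changes or p-values, and neither counts nor single libraries were analysed here.

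The ratio of the mean liver FPKM to the highest other tissue mean was computed for every entry, with 873 joined entries kept. A group's SD was taken as the upper bound less the FPKM, divided by 2. Groups of a tissue were compared by a two-sided Wald test on the log2 ratio with a delta-method SE, for entries with both values above 0 and at least 1 of them at 1 FPKM or more, with no pseudocount and with Benjamini-Hochberg adjustment over all entries tested at an FDR of 10%. A chi-square test with 3 degrees of freedom compared the 4 liver groups, and an interaction test was added after the data were seen. The scripts were tested on simulated data. Python 3.11.15, numpy 2.4.6, pandas 2.3.3, scipy 1.17.1 and matplotlib 3.10.9 were used. Per the study's methods, Cuffdiff took its dispersion from the replicate libraries of each group, which came from different mice. The tests rest on the resulting intervals and a normal approximation, and calls at the FDR are given in place of single p-values.

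The members, functional lists and tests were chosen with earlier results of these data known. Genes named were Alb, Apoa1 and Ttr, the 15 highest ratios at a mean liver FPKM of at least 10, the 10 highest levels, genes on the lists, up to 5 called members per comparison and direction, the 10 largest folds over the liver groups, and the 3 entries on each side of the ratio limit. Further called members and non-members of the lists were named after their values were seen. Some genes that these rules select are not reported here. Alternatives were other ratio and FPKM limits, medians in place of means, muscle without WT DR, no joined entries, an FDR of 5%, a pseudocount of 1, centring on the median, and the SD divided by the root of the number of libraries. Gene positions came from GENCODE M21 and promoters from RefSeq (GRCm38.p6).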

Additional observations from a re-analysis of the deposited data

Results flagged for a closer look

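For 6 members the genotype difference in liver under DR differed from that under AL, by a Wald test of the difference of both log2 differences with Benjamini-Hochberg adjustment over 13956 entries, of which 12 (0.086%) passed. Igfbp1 was the protein-coding one: the log2 difference of KO from WT was 2.95 (SE 0.49) under AL and -0.83 (SE 0.54) under DR, a change of -3.78 (SE 0.72). The pseudogene Mup-ps5 changed by 2.50. The small RNAs changed by -5.41 for n-R5s193, 3.45 for Gm25313, 2.80 for Gm22235 and 7.74 for Gm25360. In liver n-R5s193 was at 17.0 FPKM in WT AL, 24.1 in WT DR, 240 in KO AL and 7.99 in KO DR. The mean that made it a member thus rested largely on KO AL, so its change is not a separate result. Gm25360 was at 0.579 FPKM in the liver of WT DR, with a lower bound of 0. Of 975 members tested, 33 had an unadjusted p under 0.05 in this Wald test. Such a limit passes 5% when nothing differs only if the errors are neither too wide nor too narrow. In the 4 liver comparisons 1.49% to 2.73% of all protein-coding entries had a Wald p under 0.05. The share of all entries under this limit in the interaction test is not given here, so whether further members differed is not settled. These tests were added after the data were seen, and no single library could be checked behind them.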

How the results depend on the processing

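No paired analysis was possible because the files hold 1 pooled value per group and no single libraries, and for the same reason no library could be left out. The number of members moved from 1122 to 2105 at a ratio of at least 2, and to 666 when the lowest liver value was set against the highest of the 12 others. With the SD divided by the root of the number of libraries, which narrows every error by construction, the members called rose to 43 for KO AL against WT AL, 89 for WT DR against WT AL, 56 for KO DR against WT DR and 123 for KO DR against KO AL. In skeletal muscle they rose to 177 for WT DR against WT AL and 268 for KO DR against WT DR, and over the 4 liver groups to 234. The counts under each alternative are of members only, with no share of all entries beside them, and do not compare members with other entries. A pseudocount of 1 gave 135 for WT DR against WT AL in skeletal muscle, in place of 71; the cause was not tested. The other alternatives left each of these counts within 1.5 times. Of the 14 protein-coding calls, 2 were lost at an FDR of 5%, 1 with centring and 1 without the filter on low FPKM, and 1, Dsg1c, was not tested at an FPKM of at least 5. None changed direction where tested. Which reading of the authors' interval is right cannot be told from the files, so the counts of calls between liver groups depend on it.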
